A study of Mus musculus with 89 samples.

Results

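The lungs described here came from OVA-challenged mice given CuO PEG at a dose of 40 μg per day. CuO PEG is copper oxide nanomaterial with a polyethylene glycol coating. These samples were chosen from the labels alone, as the 3 samples with that material, dose and challenge among 89 in the series, and they were compared with the 8 samples of OVA-challenged mice that received no CuO. The series as a whole measured lung gene expression on Agilent mouse arrays after exposure to 1 of 4 CuO materials (pristine, carboxylated, ammonium-bearing, or PEG-coated) at 3 doses, in mice challenged with OVA or with PBS. RNA from 2 extracts was pooled for every sample. All mice were female BALB/c, 6 to 8 weeks old, and all of them, the controls included, had been sensitised with ovalbumin (OVA) in alum before the challenge. The OVA-challenged controls received OVA by oropharyngeal aspiration on 4 consecutive days, the exposed mice received OVA together with CuO PEG in the same way, and PBS-challenged mice received PBS with or without the material. Lung tissue, taken from the left lobe after lavage, was collected 24 h after the last administration. Materials were dosed by equal mass, and the PEG-coated material held the least copper per mass. The pools were independent, so the p-values below measure the spread between pools of a model of acute allergic inflammation in one inbred strain.

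In this model inhaled allergen draws eosinophils, T helper 2 cells and monocytes into the airways and turns airway epithelial cells into mucus-producing goblet cells. Copper oxide particles taken up by phagocytes release copper ions in the lysosome. Cells answer free copper with metallothioneins, which bind metal ions, and answer oxidative damage with haem oxygenase and ferritin, while injured tissue releases chemokines for CCR2 and CXCR2 that bring in monocytes and neutrophils.

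Levels are given below as log2 intensity after the contributions of dye, slide and position on the slide were removed, and fold changes come from a limma model with dye and hybridised array as terms, so a difference of levels need not equal the fold change. A gene was called when its Benjamini-Hochberg adjusted p over 22911 genes was under 0.05 and its log2 fold change was above 0.58 in size. Median spot intensity ran from 66.5 to 189 over the 11 samples, and 0 spots were saturated. Exposed replicate 1 lay on slide 4 and replicates 2 and 3 on slide 5, while the controls were spread over all 6 slides, and no exposed sample shared an array with an OVA-challenged control. The alveolar type 1, alveolar type 2, club, ciliated and endothelial genes fixed as markers of lung tissue showed the tissue as labelled, with mean list levels in the exposed samples of 12.62 to 12.89 for type 1 and of 13.73 to 13.90 for type 2 cells.

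CuO PEG 40 changed 132 genes in the allergic lung, 88 of them higher and 44 lower, which was 0.576% of all genes tested (0.384% higher and 0.192% lower). The largest rises were in genes of phagocytes, of acute phase proteins and of a monocyte chemokine, and the largest falls were in beta-globin and other erythroid genes. The levels of the 3 exposed samples and the 8 controls did not overlap for 93 of the called genes, 67 above and 26 below, against 8.33% of all genes whose exposed samples lay on 1 side of every control. The called genes were selected for a difference between these same samples, which favours such separation, so the count is not separate support. The exposed samples were not alike in size of response. Of the 88 genes called higher, 71 had their lowest exposed level in replicate 2 and 76 had their highest in replicate 3. Without replicate 1, 2 or 3 the count of called genes was 28, 442 and 9. Without control replicates 3, 6 or 7 it was 87, 82 and 39. All 132 genes kept their sign without exposed replicate 1, 2 or 3, but they had been called over the same samples, so this is not separate support. Of the called genes, 64 were also called when slide and array position replaced the single array terms, where 1.3% of all genes were called.

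**Figure D1:**
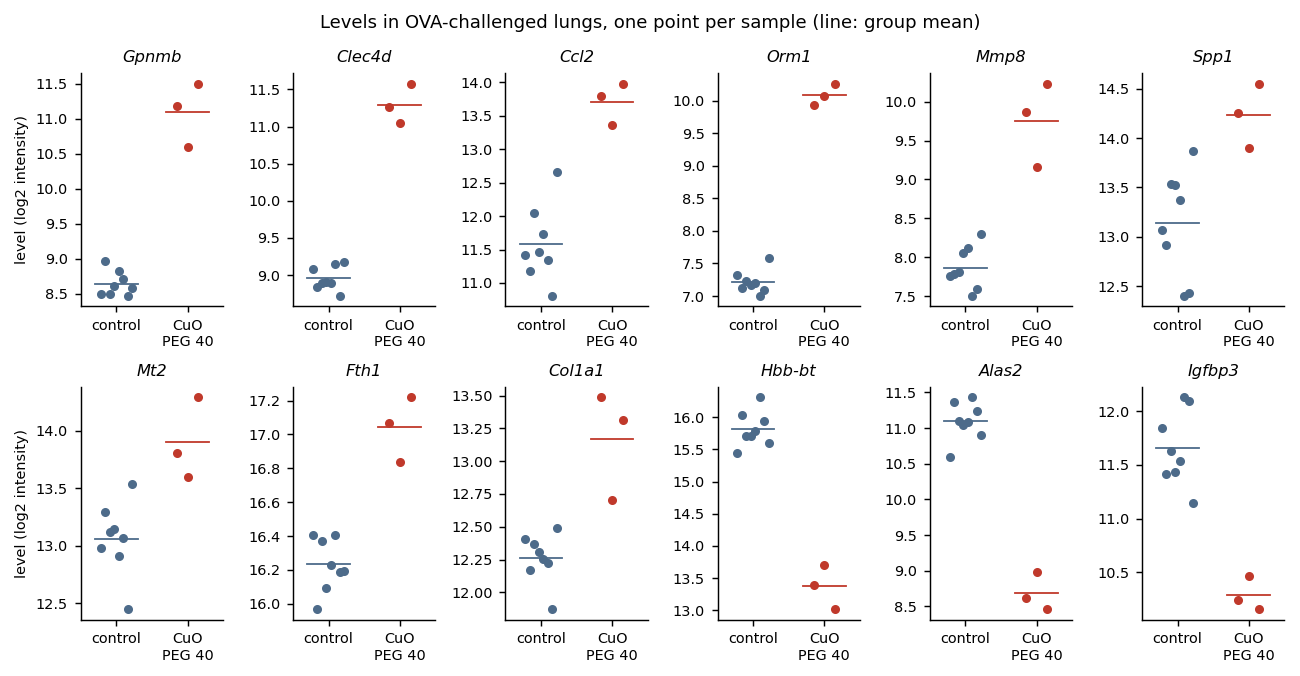
Each panel shows 1 gene, with the level in log2 intensity on the vertical axis (the axes differ and do not start at 0), 1 point per sample and the group mean as a line, for 8 OVA-challenged controls and 3 samples of CuO PEG 40. In all 12 genes the 3 exposed samples lie on 1 side of the 8 controls, above them for the first 9 genes and below them for Hbb-bt, Alas2 and Igfbp3.

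The clearest rises were in genes of recruited monocytes and macrophages. Of the 18 genes measured on that list 6 rose and 0 fell, with a median log2 fold change of 0.95 against -0.01 over all genes. Clec4d, a C-type lectin receptor of myeloid cells, stood at 11.26, 11.05 and 11.57 in the exposed samples and between 8.72 and 9.18 in the controls, with a median of 8.90. All 3 exposed samples lay far above the highest control, and the rise was 5.39-fold (log2 2.43 ± 0.26 SE, adjusted p = 7.1e-05). Its partner receptor Clec4e was at 10.03, 9.52 and 10.37 against 7.70, 7.83 and 8.34 for the lowest, median and highest control (log2 fold change 1.98 ± 0.42, adjusted p = 0.0300). Gpnmb, a transmembrane glycoprotein of lysosome-laden macrophages, had the largest rise of all, with levels of 11.19, 10.60 and 11.50 against 8.47, 8.59 and 8.96, a 7.67-fold difference (log2 2.94 ± 0.51, adjusted p = 0.0125). Spp1, the secreted matricellular protein osteopontin, was already high in the allergic controls (12.40, 13.22 and 13.87) and higher in the exposed samples (14.25, 13.90 and 14.55), where replicate 2 lay beside the highest control. Its log2 fold change was 1.98 ± 0.29 (adjusted p = 0.00785). The scavenger receptor Msr1 (log2 fold change 1.41) and the lectin Clec5a (0.77) complete the 6. Without exposed replicate 1, 2 or 3, 4, 9 and 1 of the 18 genes were called. In bulk tissue, more cells of a type and more RNA per cell cannot be told apart, and neither can fewer cells and less RNA per cell.

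Among the ligands that draw these cells, Ccl2 was at 13.80, 13.36 and 13.98 in the exposed samples, while the controls spread widely, from 10.81 through a median of 11.44 to 12.66. The groups did not overlap, and Ccl2 rose 6.46-fold (log2 2.69 ± 0.55, adjusted p = 0.0269). Ccl7, another CCR2 ligand, was at 11.79, 11.58 and 12.09 against 9.29, 10.34 and 11.44, and its log2 fold change of 2.23 ± 0.56 missed the threshold (adjusted p = 0.0632). Ccl2 was the only 1 called of the 5 measured genes of this axis, whose median was 1.47, and 0 of the 5 were called without exposed replicate 1, exposed replicate 3 or control replicate 7, and 3 without exposed replicate 2. Of the 7 CXCR2 ligands and neutrophil growth factors, 0 were called by limma and 2 had an unadjusted p under 0.05, and Cxcl5, which draws neutrophils, had the smallest p among them (log2 fold change 1.67, adjusted p = 0.187). Tnf (0.70, adjusted p = 0.309) and Il6 (0.79, adjusted p = 0.284) were not called either. Tnf was called higher with slide and position as terms (0.69, adjusted p = 0.0272), and so were 2 of the 7 genes, the receptor Cxcr2 (1.24, adjusted p = 0.00360) and the platelet chemokine Ppbp (0.73, adjusted p = 0.00727).

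Acute phase genes were another group of rises. Orm1 and Orm2 encode orosomucoids, plasma glycoproteins made in inflammation, and they have similar sequences, so their probes may share signal. Orm1 was low in controls (7.00, 7.18 and 7.58) and at 9.94, 10.07 and 10.26 in the exposed samples, which lay close together and well above every control (6.63-fold, log2 2.73 ± 0.58, adjusted p = 0.0302). Orm2 was at 9.24, 9.41 and 9.63 against 6.33, 6.60 and 7.06 (log2 fold change 2.41 ± 0.56, adjusted p = 0.0453). Saa4, a constitutive serum amyloid A gene, was at 6.86, 6.70 and 6.68, above all controls (5.60 to 6.11), but only 2 of 8 controls measured it above background (log2 fold change 0.91 ± 0.18, adjusted p = 0.0208). These 3 were called of 16 on the acute phase list, whose median was 0.46, and 11 of the 16 had all exposed samples above all controls, where 4.79% of all genes did. With slide and position in place of array, 7 of 16 were called higher against 0.89% of all genes, adding the inducible Saa1 (log2 fold change 1.77), Saa2 (1.63) and Saa3 (2.09) and the iron-binding Lcn2 (1.21). Of 16 neutrophil genes 1 was called with array as a term, Mmp8, the neutrophil collagenase. It was at 9.87, 9.15 and 10.23 against 7.50, 7.80 and 8.30 (log2 fold change 2.17 ± 0.35, adjusted p = 0.0106). When slide and position were the terms, 6 neutrophil genes were called higher and 1 lower. They were Mmp8, the calprotectin subunits S100a8 (1.75, adjusted p = 1.1e-04) and S100a9 (1.54, adjusted p = 8.9e-04), the granule proteins Camp (1.06) and Mmp9 (1.06) and the decoy receptor Il1r2 (1.07), and the formyl peptide receptor Fpr2 was the one lower (-0.69). All 3 exposed samples lay above all controls for 8 of the 16 and below them for 1, where 3.54% of all genes lay below. The levels rest on the slide and position terms. These counts and the 11 of 16 acute phase genes are therefore not separate support for the calls made with those terms.

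Metal-binding and antioxidant genes gave few called members, and not all of them kept the call under other batch terms. Mt1 and Mt2 are the metallothioneins of the lung and lie side by side in the genome. Their promoters are shown because metal-regulated transcription acts through short metal response elements in them. The 250 bases before each start (RefSeq, GRCm38.p6) are at chr8:94178839-94179088 for Mt1 and chr8:94172368-94172617 for Mt2, both on the plus strand. Capitals mark the letters TGCNCNC, with N any base, on either strand. This string is looser than the core of the metal response element, which has A or G in the fourth place, and all matches counted below are of the looser string.
Mt1: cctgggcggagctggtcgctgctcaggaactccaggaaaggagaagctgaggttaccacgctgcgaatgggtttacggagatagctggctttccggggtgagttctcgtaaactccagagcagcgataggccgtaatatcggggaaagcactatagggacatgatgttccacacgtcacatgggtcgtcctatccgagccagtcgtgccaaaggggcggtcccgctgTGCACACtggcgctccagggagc
Mt2: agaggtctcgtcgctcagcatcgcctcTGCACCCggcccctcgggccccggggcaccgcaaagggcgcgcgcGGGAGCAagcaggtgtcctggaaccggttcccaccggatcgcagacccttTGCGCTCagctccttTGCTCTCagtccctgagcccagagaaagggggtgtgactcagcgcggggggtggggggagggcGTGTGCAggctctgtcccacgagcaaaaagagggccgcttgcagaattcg
The Mt2 window held 5 matches, starting 223, 178, 128, 113 and 50 bases before the start, and the Mt1 window held 1, starting 23 bases before it. None overlapped another match. The Mt2 matches at 178 and 113 have T in the fourth place of the string, so they are not matches to the narrower core. At least 1 match stood in 44.4% of the 32851 promoters of the same length and 5 or more stood in 0.344%, and a match is a string of letters, not a shown binding site. Among genes with a promoter in the table, at least 1 match stood in 45.6% of 68 genes called higher, in 60.7% of 28 called lower and in 47.2% of all 27025 genes. The other strings searched, on both strands, were TGACNNNGC (antioxidant response element core), the NF-kB site, TTCNNNGAA (STAT) and GAANNTTC (heat shock element core). They stood in 7.35%, 0%, 4.41% and 10.3% of the genes called higher and in 11.5%, 1.13%, 8.13% and 7.73% of all genes.

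Mt1 was at 11.30, 11.28 and 11.66 in the exposed samples against 10.22, 10.63 and 10.91 for the lowest, median and highest control (log2 fold change 1.07 ± 0.17, adjusted p = 0.0106). Mt2 was at 13.81, 13.60 and 14.29 against 12.45, 13.09 and 13.53, with replicate 2 just above the highest control (log2 fold change 1.41 ± 0.27, adjusted p = 0.0185). Both metallothioneins rose, but Mt2 missed the threshold with slide and position as terms (0.84, adjusted p = 0.0834). They were the 2 called of 17 copper and metal genes, with a median of 0.10. Of 20 Nrf2 antioxidant targets 2 rose, with a median of 0.13. Fth1, the ferritin heavy chain, was at 17.07, 16.84 and 17.22 against 15.97, 16.21 and 16.41 (log2 fold change 1.25 ± 0.20, adjusted p = 0.0108). Hmox1, which degrades haem, was at 12.01, 12.04 and 12.76 against 10.95, 11.70 and 11.94, close to the highest control in replicates 1 and 2 and higher in replicate 3 (log2 fold change 1.25 ± 0.27, adjusted p = 0.0343). Its call was lost with slide and position as terms (0.70, adjusted p = 0.313). Of 11 heat shock, 12 ER stress and 13 p53 genes, 0 were called by limma with array, and 1, 3 and 0 had an unadjusted p under 0.05. The smallest p on each list was that of the co-chaperone Dnajb1 (log2 fold change -0.96, adjusted p = 0.219), the phosphatase subunit Ppp1r15a (-0.68, adjusted p = 0.147) and the stress cytokine Gdf15 (0.44, adjusted p = 0.418). With slide and position as terms Dnajb1 was called lower (-0.72, adjusted p = 0.0156), and no ER stress or p53 gene was called. All exposed samples lay below all controls for 2 heat shock and 2 ER stress genes, where 3.54% of all genes did. They lay above all controls for 1 p53 gene, where 4.79% of all genes did. The levels rest on the same slide and position terms as the Dnajb1 call.

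Genes of tissue repair rose in part. Col1a1, the chain of type I collagen, was at 13.49, 12.70 and 13.31 against 11.87, 12.28 and 12.49 in controls, with replicate 2 nearest to them (log2 fold change 1.39 ± 0.29, adjusted p = 0.0275). Col5a1 of type V collagen had a log2 fold change of 0.93 ± 0.18 (adjusted p = 0.0217). These were 2 of 9 collagen and fibroblast genes, whose median was 0.70. The matrix list also gave 2 of 14, Spp1 and Tnc, the wound glycoprotein tenascin C (7.69, 7.56 and 7.85 against 6.63, 6.99 and 7.24, log2 fold change 1.04 ± 0.23, adjusted p = 0.0392). Other called rises were C3ar1, the receptor for complement fragment C3a (1.45 ± 0.34), Apoc2, the cofactor of lipoprotein lipase (1.58 ± 0.33, replicate 2 at 9.18 and the others at 10.14 and 10.18), and B430306N03Rik (1.86 ± 0.42).

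Erythroid genes had the largest falls. Hbb-bt, an adult beta-globin gene, was at 13.39, 13.71 and 13.02 in the exposed samples, while the 8 controls lay between 15.45 and 16.31 with a median of 15.75. The exposed samples were all well below the lowest control, and the difference was 5.92-fold (log2 -2.56 ± 0.43, adjusted p = 0.0125). Hbb-b1 (-2.52 ± 0.50) and Hbb-b2 (-1.99 ± 0.37) also fell, though near-identical globin genes may share probe signal. Alas2, the erythroid enzyme that starts haem synthesis, was at 8.62, 8.98 and 8.46 against 10.59, 11.09 and 11.43 (log2 fold change -2.26 ± 0.41, adjusted p = 0.0152). On the erythrocyte list 2 of 7 measured genes fell, with a median of -1.30, and the mean level of the list was 8.48 to 8.78 in the exposed samples and 9.51 to 10.01 in the controls. Blood left in the tissue was not measured, and its part in these falls was not tested.

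Other falls were spread over tissue genes. Igfbp3, a carrier of insulin-like growth factors, was at 10.24, 10.47 and 10.16 against 11.15, 11.58 and 12.13 (log2 fold change -1.38 ± 0.25, adjusted p = 0.0152). Cd207, the langerin of a dendritic cell subset, was at 6.44, 6.83 and 6.41 against 7.23, 7.54 and 7.71 (-1.20 ± 0.23, adjusted p = 0.0185). Colq, the collagen tail of acetylcholinesterase, fell by 1.33 ± 0.30 on the log2 scale and AW549542 by 1.23 ± 0.24. Cyp2a4, a cytochrome P450, was at 9.36, 8.73 and 8.51 against 9.62, 10.08 and 11.69 (-2.15 ± 0.45, adjusted p = 0.0275). With only dye removed, exposed replicate 1 differed by -0.42 from control replicate 5, the only control on slide 4. The mean of exposed replicates 2 and 3 differed by -3.12 from control replicate 6, the only control on slide 5.

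Goblet cell and alveolar macrophage genes were lower in level once dye, slide and position were removed. Whether they were called depended on the batch terms, and so did the size of the goblet fall. The levels and the counts below all controls rest on the slide and position terms, so they are not separate support for the calls made with those terms. Muc5ac, the gel-forming mucin of allergic airways, was at 8.49, 8.19 and 9.34 in the exposed samples and at 10.13, 10.69 and 11.14 for the lowest, median and highest control. Fcgbp, a mucus-associated protein, was at 8.40, 8.37 and 9.38 against 10.34, 10.88 and 11.38. In both genes no exposed sample reached the controls, and replicate 3 was nearest to them. With array as a term the log2 fold changes were -0.75 (adjusted p = 0.697) and -1.30 (adjusted p = 0.227), and with slide and position they were -1.99 (adjusted p = 0.00404) and -2.16 (adjusted p = 1.3e-04). Of the 12 goblet genes 9 lay wholly below the controls, where 3.54% of all genes did, and 0 were called by limma with array (2 at an unadjusted p under 0.05) and 8 with slide and position, where 0.41% of all genes were called lower, with list medians of -0.63 and -1.41. Ear2, a ribonuclease of macrophages and eosinophils, was at 12.51, 13.47 and 12.47 against 14.05, 14.51 and 14.65 (log2 fold change -1.45 ± 0.37, adjusted p = 0.0694 with array). Alveolar macrophage genes gave 12 of 19 below all controls, with 0 called lower and 1 higher by limma with array (10 at an unadjusted p under 0.05) and 7 lower and 1 higher with slide and position, and the mean level of the list was 10.36 to 10.59 in exposed samples against 11.16 to 11.35 in controls. The member called higher was Fabp5, a fatty acid carrier (1.19 ± 0.26, adjusted p = 0.0361). Club cell genes, the secretory cells of small airways, also had lower levels, with a list mean of 12.14 to 13.16 in exposed samples against 13.24 to 13.90 in controls. With array 0 of 8 were called by limma (1 at an unadjusted p under 0.05). With slide and position 1 of the 8 was called lower, and 2 of the 8 lay wholly below the controls.

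The allergic mediators that the study measured in other assays were not called with array as a term. Ccl11, an eosinophil chemokine, had a log2 fold change of 0.27 (adjusted p = 0.762), Il33, an epithelial alarmin, of 0.02 (adjusted p = 0.982), and Il13, the T helper 2 cytokine, of 0.40 (adjusted p = 0.232) with no sample above background. Epx, eosinophil peroxidase, had a log2 fold change of 1.12 (adjusted p = 0.0654). With slide and position as terms 1 of 10 eotaxin and eosinophil genes was called, where 0.41% of all genes were called lower. It was Ccl24, an eosinophil chemokine that was lower (-1.29, adjusted p = 0.0264), and it was no longer called when any 1 exposed sample was left out. Of the 10 genes 3 lay below all controls, where 3.54% of all genes did. The levels rest on the slide and position terms, so that count is not separate support for the call. Ccl11 turned to -0.19 with slide and position, and was called lower with replicate number in place of array (-1.89, adjusted p = 1.1e-06). T cell genes gave 0 of 22 called by limma, 3 at an unadjusted p under 0.05, and a median of -0.16. The mitotic list gave 0 of 23 called, 15 at an unadjusted p under 0.05, and a median of 0.50, and no member lay outside the controls in all 3 exposed samples.

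Interferon-induced genes divided the exposed samples. Rsad2, an antiviral enzyme, was at 9.61 and 9.41 in replicates 1 and 3 and at 7.91 in replicate 2, beside a highest control of 7.90. All 15 genes of the list were lowest in replicate 2. Replicates 1 and 3 lay above every control for 12 of them, and replicate 2 lay within the controls for 12, counted separately. All 3 exposed samples lay above every control for 2 genes, where 4.79% of all genes did. With all samples 0 of 15 were called by limma (5 at an unadjusted p under 0.05) with a median of 1.14, 8 rose without replicate 2 with a median of 1.90, and 0 were called without replicate 1 with a median of 0.41. Slide and position as terms gave 5 of 15 called higher on all samples, Rsad2 (1.48, adjusted p = 0.00882), Ifit1 (1.10), Ifit2 (1.29), Ifit3 (0.86) and Usp18 (0.99), and 0, 12 and 1 without replicate 1, 2 and 3. A smaller set rested on replicate 3. 1700069L16Rik was at 5.80, 5.76 and 8.96 and Pantr2 at 5.67, 5.62 and 8.39 in replicates 1 to 3, and only replicate 3 measured them above background, although both were called (log2 fold change 1.67 and 1.47).

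**Figure D2:**
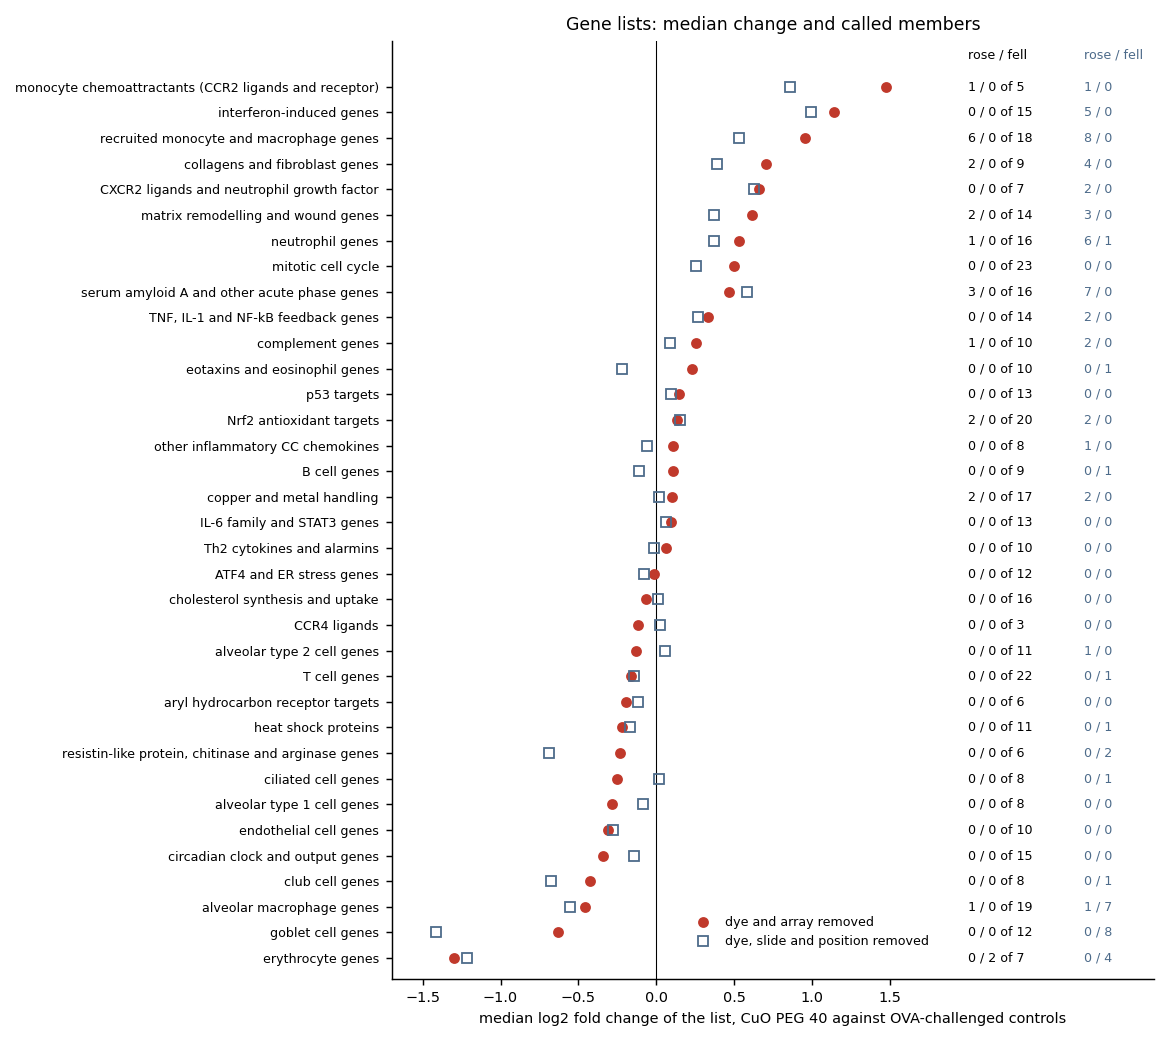
For each of 35 gene lists the horizontal axis gives the median log2 fold change of CuO PEG 40 against OVA-challenged controls, as filled circles with dye and array removed and as open squares with dye, slide and position removed, and the numbers at the right count the called members (rose / fell). Among the circles the CCR2 axis has the highest median (1.47) and the erythrocyte list the lowest (-1.30), and the goblet list moves from -0.63 to -1.41 between the models.

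Lower doses of CuO PEG were compared with the same 8 controls, with array as a term. Against the controls 0 of the 132 genes were called after CuO PEG 10 and 0 after CuO PEG 2.5, where 0% and 0.00436% of all genes were called by limma, and 42 and 17 of the 132 had an unadjusted p under 0.05. The median log2 fold change of the 88 genes that rose was 0.14 at 2.5 and 0.24 at 10 μg per day. For the 44 that fell it was -0.21 and -0.27. With slide and position as terms, the median difference of CuO PEG 40 from CuO PEG 10 was 0.27 for the 88 and -0.19 for the 44. These medians come from different fits, and the genes were chosen by their calls at 40 over the same controls. The medians therefore do not show how much of the change was present at 10. Gpnmb stood at 8.64 ± 0.18 (SD, n = 8) in controls, 9.04 ± 0.33 at 2.5, 10.74 ± 0.36 at 10 and 11.09 ± 0.46 at 40 μg per day (n = 3 each), so most of its difference in level from the controls was present at 10. Orm1 (7.21, 7.26, 9.02 and 10.09), Ccl2 (11.58, 11.32, 12.85 and 13.71) and Clec4d (8.96, 9.27, 10.37 and 11.30) had higher mean levels at 10 than at 2.5 and at 40 than at 10. Muc5ac was at 10.66 in controls, 10.75 at 2.5 and 10.78 at 10, and at 8.67 at 40.

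Tested directly with slide and position as terms, CuO PEG 40 differed from CuO PEG 10 in 34 genes (0.148%), 10 higher (0.0436%) and 24 lower (0.105%). Mucus genes led the falls. Muc5ac was lower by log2 -2.11 ± 0.48 (adjusted p = 0.0348), Fcgbp by -1.89 ± 0.40 (adjusted p = 0.0285) and the chitinase-like Chil4 by -1.69 ± 0.37 (adjusted p = 0.0285), and 3 of 12 goblet genes and 4 of 19 alveolar macrophage genes were called lower. Leaving out 1 sample at a time gave 0 or 1 goblet gene in each of the 6 fits, with medians of -1.76 to -0.99, and 0 to 4 alveolar macrophage genes (0 without CuO PEG 40 replicate 3 or CuO PEG 10 replicate 1 or 2, 1 without CuO PEG 40 replicate 1 and 2 without CuO PEG 10 replicate 3). Hbb-bt was lower by -1.22 ± 0.28 (adjusted p = 0.0369). Ccl2 (0.86, adjusted p = 0.597), Orm1 (1.07, adjusted p = 0.374) and Gpnmb (0.36, adjusted p = 0.841) were not called different from the lower dose. The 3 largest rises, 1700069L16Rik, Klrb1-ps1 and Pantr2, rested on exposed replicate 3. Counts fell to 2 without that sample, to 6 and 1 without CuO PEG 10 replicates 1 and 2, and rose to 57 without exposed replicate 2, and with array as a term 0 genes were called by limma, with 1460 at an unadjusted p under 0.05 against 2054 with slide and position. Of the 132 genes changed against controls, 6 differed between the doses, where 0.148% of all genes did.

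**Figure D3:**
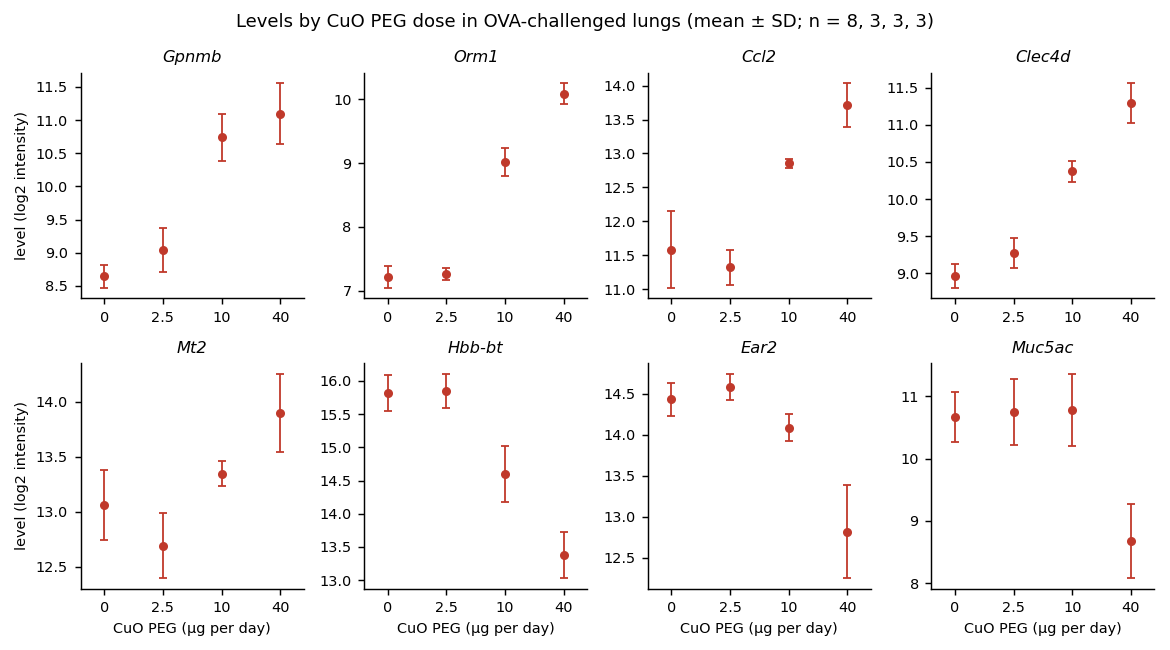
Each panel gives the mean level of 1 gene in log2 intensity (vertical axes differ and do not start at 0) by CuO PEG dose in μg per day under OVA challenge, with bars for the SD over 8 controls at dose 0 and 3 samples at each other dose. Gpnmb, Orm1, Ccl2 and Clec4d are higher at 10 and at 40, while Muc5ac is near its control level up to 10 (10.78) and at 8.67 at 40.

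Without allergen, the same dose acted on many of the same genes. CuO PEG 40 changed 512 genes against PBS-challenged controls (2.23%), 127 of the 132 genes had the same sign there, and 49 were called. The 2 comparisons share no exposed samples or controls. They come from 1 fit with array terms, and some of their samples share an array, such as OVA control replicate 5 and PBS CuO PEG 40 replicate 1. Their fold changes are therefore not independent, and the share of all genes with the same sign was not counted. Ccl2 rose by log2 4.53 ± 0.55 under PBS (adjusted p = 4.1e-05) against 2.69 under OVA, and the allergen alone had raised it in controls by 2.89 (adjusted p = 1.8e-05). Orm1 rose by 3.35 ± 0.58, Spp1 by 2.88 ± 0.29 and Clec4d by 1.85 ± 0.26. Gpnmb had a log2 fold change of 0.77 ± 0.51 under PBS (adjusted p = 0.569), and Hbb-bt of -1.24 ± 0.43 (adjusted p = 0.156). The difference between challenges was itself tested. No gene was called by limma, with a smallest adjusted p of 0.261 over all genes, and 1121 genes had an unadjusted p under 0.05, 41 of them among the 132. For Gpnmb the difference was 2.17 ± 0.72 (unadjusted p = 0.00626, adjusted p = 0.735), for Ccl2 -1.84 ± 0.79 (unadjusted p = 0.0280, adjusted p = 0.939) and for Il33 -1.10 ± 0.34 (unadjusted p = 0.00339, adjusted p = 0.690). Il33 rose under PBS (1.12 ± 0.24, adjusted p = 0.00814) and was 0.02 under OVA, where the controls were already higher by 1.42.

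The mitotic and acute phase lists are given for both challenges. All 23 mitotic genes rose with CuO PEG 40 under PBS (median 1.39), and all 23 were also higher in OVA-challenged than in PBS-challenged controls, which share the PBS controls with that comparison (median 1.54, 5.22% of all genes called). Under OVA the median was 0.50 with 0 called. Acute phase genes gave 12 of 16 under PBS (median 1.57) and 3 of 16 under OVA (median 0.46), and 7 of 16 were higher in OVA-challenged than in PBS-challenged controls (median 0.45). The difference between challenges was called for 0 members of either list, with medians of -0.93 and -0.63. With slide and position in place of array, 244 genes were called for the difference, 21 of them with a larger value under OVA.

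**Figure D4:**
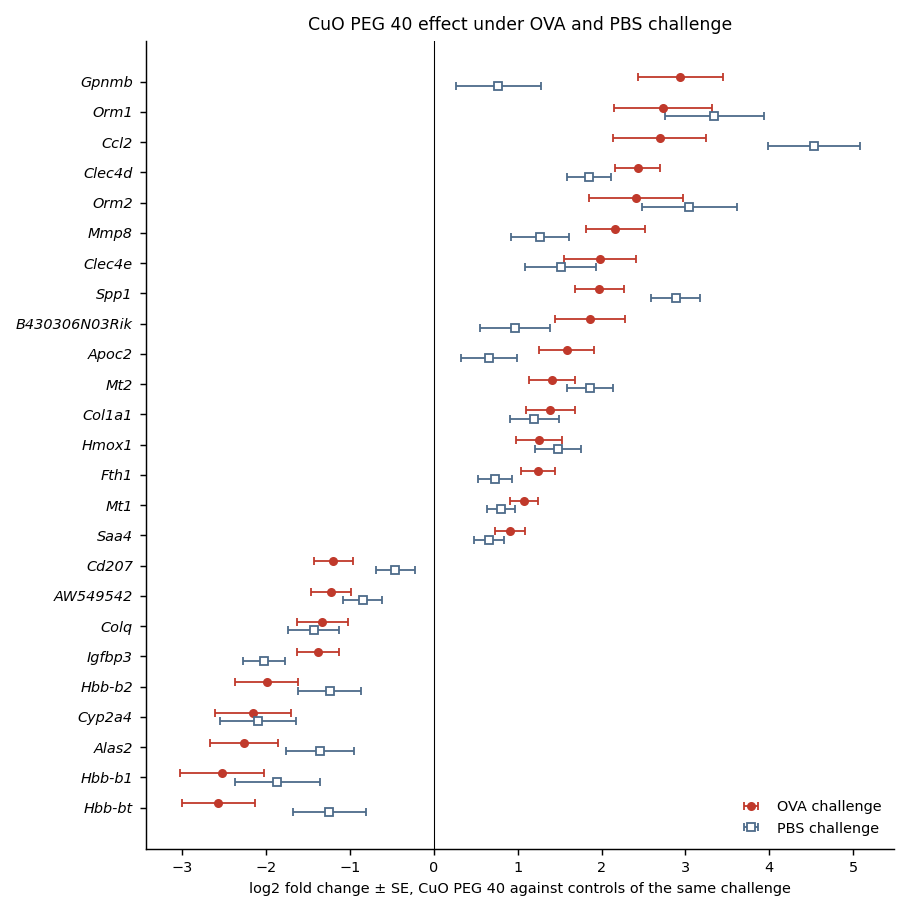
The log2 fold change of CuO PEG 40 against controls of the same challenge (horizontal axis, with SE) for 25 genes, as filled circles under OVA and open squares under PBS. Ccl2 is at 2.69 under OVA and 4.53 under PBS, Gpnmb at 2.94 and 0.77, and Hbb-bt at -2.56 and -1.24.

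The other materials at the same mass dose were compared in 3 pairs of 3 against 3 samples, with slide and position as terms. Pristine CuO has no coating, CuO COOH carries carboxyl groups and CuO NH3 carries ammonium groups. Samples of CuO and CuO COOH lay on slides 1 to 3 and those of CuO PEG and CuO NH3 on slides 4 to 6, so the first 2 pairs are joined only across slides through the controls, and all 3 pairs share the CuO PEG 40 samples. CuO PEG 40 differed from CuO 40 in 92 genes (0.402%), 80 higher and 12 lower (0.0524%), from CuO COOH 40 in 197 (0.86%), 92 higher and 105 lower, and from CuO NH3 40 in 446 (1.95%), 285 higher and 161 lower. Adjusted over the 3 pairs together, the counts were 164, 210 and 393. With array as a term they were 1, 5 and 0, with 1245, 2477 and 2064 genes at an unadjusted p under 0.05. Against CuO 40 the count was 0 without CuO 40 replicate 1, 33 without replicate 3, 193 without replicate 2, 15 without CuO PEG 40 replicate 1 and 176 without replicate 2. Against CuO COOH 40 it was 130 without CuO PEG 40 replicate 2, and against CuO NH3 40 it was 249 without CuO NH3 40 replicate 3.

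T cell genes were higher in level with CuO PEG 40 than with the other materials. The mean level of the 22 genes was 8.57 ± 0.12 (SD, n = 3) with CuO PEG 40 and 8.68 ± 0.11 (n = 8) in controls, and 7.89 ± 0.12, 7.94 ± 0.12 and 7.91 ± 0.14 with CuO, CuO COOH and CuO NH3. Of the 22, 7 were called higher against CuO 40 (0.349% of all genes), 7 against CuO COOH 40 (0.402%) and 13 against CuO NH3 40 (1.24%), with 0 lower in each, and Cd2, Cd6 and the T cell receptor chains Cd3d and Cd3g were among them in every pair. Cd2, an adhesion receptor, was at 10.80 ± 0.11 with CuO PEG 40, between 9.68, 9.85 and 9.83 with the other materials and 11.49 ± 0.10 in controls, and it was called lower than in controls with slide and position as terms (-0.69, adjusted p = 0.00351) but not with array (-0.48, adjusted p = 0.190). The B cell list stood at 8.47 ± 0.21 with CuO PEG 40, 7.96 ± 0.11, 7.77 ± 0.26 and 7.98 ± 0.10 with CuO, CuO COOH and CuO NH3, and 8.69 ± 0.12 in controls, and 0 of its 9 genes were called by limma in any of the 3 pairs, with 3, 7 and 6 at an unadjusted p under 0.05. For the T cell list, leaving out 1 sample at a time gave 0 to 7, 1 to 8 and 2 to 14, with a positive median in every case. The count against CuO 40 was 0 without CuO 40 replicate 1 or CuO PEG 40 replicate 1 and 2 without CuO 40 replicate 3, that against CuO COOH 40 was 1 without CuO PEG 40 replicate 1, 3 without CuO COOH 40 replicate 3 and 4 without CuO PEG 40 replicate 2, and that against CuO NH3 40 was 5 without CuO PEG 40 replicate 1 and 2 without CuO NH3 40 replicate 3.

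Single genes differed by pair. The largest difference from CuO 40 was in Gm15056 (2.91 ± 0.63, adjusted p = 0.0185). Ear2 stood at 12.82 with CuO PEG 40 and 11.13 with CuO 40 (difference 1.69 ± 0.35, adjusted p = 0.0134), and Mmp12, a macrophage elastase, was 1.82 ± 0.44 higher (adjusted p = 0.0363) than with CuO 40. The chemokine Ccl20 (-1.30 ± 0.31, adjusted p = 0.0330), the cartilage collagen Col2a1 (-1.16 ± 0.28) and the matrix protein Fbln2 (-1.08 ± 0.22) were lower in that pair. Against CuO COOH 40 the dendritic and B cell marker Cd83 was 1.31 higher (adjusted p = 9.7e-04), with the chitinase Chia1 (1.56) and the B cell coactivator Pou2af1 (1.30), while the goblet cell product Retnlb (-2.28, adjusted p = 0.0047), 2210407C18Rik (-2.02) and Fbln2 (-1.64) were lower. Tnc (-1.29) and Col5a1 (-0.99) were lower than with CuO COOH 40, and Tnc (-1.11) and Col5a1 (-0.73) were lower than with CuO NH3 40. Against CuO NH3 40 the stress chaperone Hspa1a (-2.38), Retnlb (-2.19), 2210407C18Rik (-2.09) and Hmox1 (-1.39 ± 0.38, adjusted p = 0.0162) were lower, and the interferon-induced Ifi44 (1.98), Isg15 (1.97) and Irf7 (1.92) were higher. The interferon list gave 13 of 15 higher in that pair and 0 in the others. Its mean level was 10.23 to 11.54 over the CuO PEG 40 samples, 9.49 ± 0.26 with CuO NH3, 10.03 ± 0.16 with CuO, 11.37 ± 0.24 with CuO COOH and 10.17 ± 0.21 in controls. The highest CuO NH3 sample (9.67) lay below the lowest control (9.90), so the difference in that pair is not a rise over controls alone. Without CuO PEG 40 replicate 1 the list gave 5 of 15 against CuO NH3 40, and without replicate 2, the sample with low interferon genes, it gave 7 of 15 higher against CuO 40 (median 1.61).

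Of the 132 genes changed by CuO PEG 40, 1, 5 and 13 were called different from CuO 40, CuO COOH 40 and CuO NH3 40, where 0.402%, 0.86% and 1.95% of all genes were. A gene not called different was not shown to be equal. Clec4d differed from CuO 40 by -0.39 (95% interval -1.04 to 0.25), from CuO COOH 40 by 0.06 (-0.54 to 0.66) and from CuO NH3 40 by -0.10 (-0.62 to 0.42). For Hbb-bt the differences were 0.20 (-0.52 to 0.92), 0.43 (-0.25 to 1.10) and 0.18 (-0.40 to 0.76). For Ccl2 they were 0.53 (-0.64 to 1.71), 0.00 (-1.10 to 1.10) and -0.53 (-1.48 to 0.41). Mt2 differed from CuO 40 by -1.06 (-1.82 to -0.29, adjusted p = 0.237) and from CuO NH3 40 by -0.76 (-1.37 to -0.14, adjusted p = 0.147), and neither difference was called. Hmox1 differed from CuO 40 by -1.60 (-2.54 to -0.66, adjusted p = 0.115) and was not called. Against the shared OVA-challenged controls with array as a term, 63 of the 132 genes were called for CuO 40 (1.61% of all genes), 64 for CuO COOH 40 (3.83%) and 74 for CuO NH3 40 (3.94%). The 132 had been called over those same controls, which favours such overlap.

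**Figure D5:**
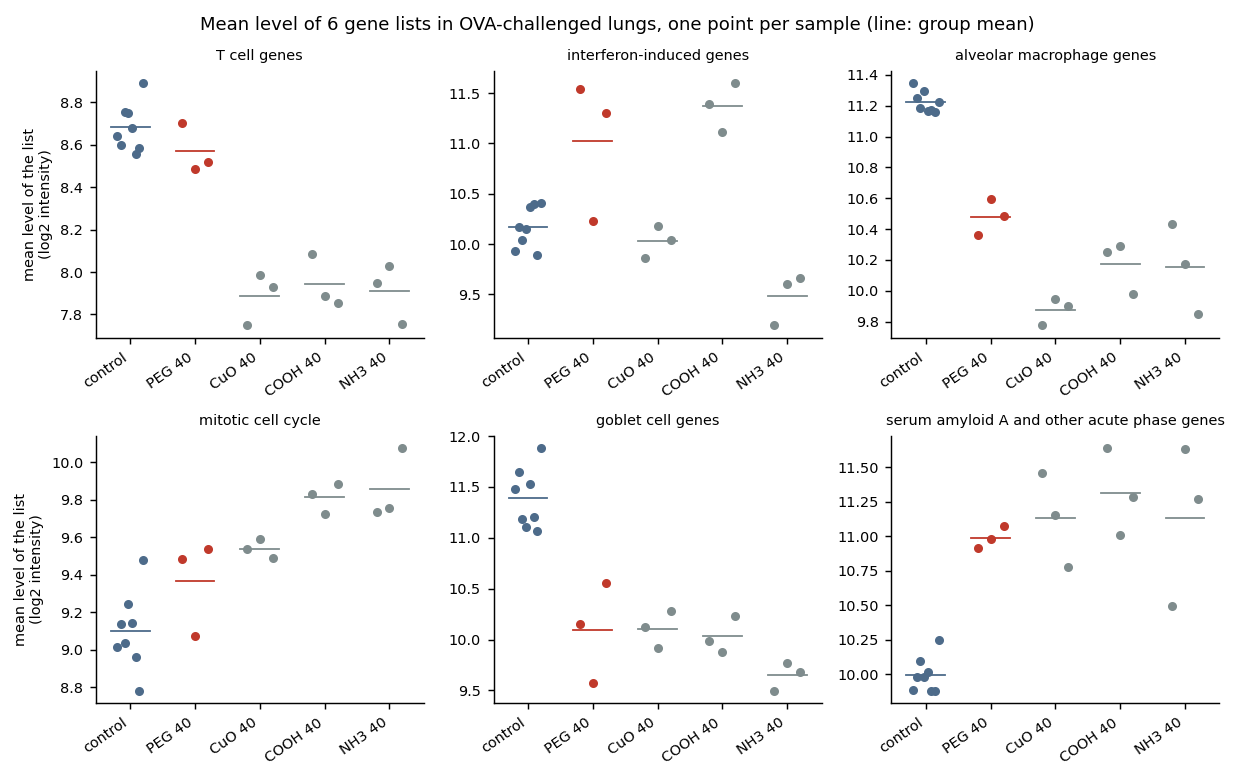
Each panel gives the mean level of 1 gene list in log2 intensity (vertical axes differ and do not start at 0) for OVA-challenged lungs of 5 groups, 1 point per sample and the group mean as a line. The T cell list stands at 8.57 with CuO PEG 40 and at 8.68 in controls, and at most at 8.08 in the samples of the other 3 materials, while the interferon list spreads from 10.23 to 11.54 over the CuO PEG 40 samples.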

How the data were processed

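Lung RNA of 89 samples in 26 groups was labelled with Cy3 or Cy5 and 2 samples were hybridised to most of 46 Agilent 8x60K mouse arrays on 6 slides, and each channel was treated as 1 sample. The deposited scanner files, made by the authors with Feature Extraction, hold a median foreground intensity per spot without normalization, and the deposited value table holds log2 values by the authors with medians of 6.48 to 6.51, in the same order within each sample as the scanner values (Spearman correlation of 1). Intensities were log2 transformed and quantile normalized over 89 samples, without background subtraction, control and outlier spots were left out, and 32994 probes with a gene name were averaged to 22911 genes (23611 probes had none). Between 46.7% and 68.8% of spots per sample were well above background, and the number of arrays limits the precision.

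Groups came from the sample labels. Differences were tested with limma 3.58.1 in R 4.3.3 on all 89 samples, with dye and array as terms for the comparison with controls and for the difference between challenges, and with dye, slide and array position for the comparisons of dose and material. Calls needed a Benjamini-Hochberg adjusted p under 0.05 over all genes and a log2 fold change above 0.58 in size. Levels had dye, slide and position removed. Each test was checked on simulated data. The members and gene lists were chosen with earlier results of these data known. Named genes were the 10 largest called rises and falls with non-overlapping levels and signal above background in the higher group, up to 3 called members of each list or the one of smallest p, 6 mediators measured by the study in other assays, and the 3 largest rises and falls of the other comparisons. Genes named outside that rule (Msr1, Clec5a, Saa1, Saa2, Saa3, Lcn2, S100a8, S100a9, Camp, Mmp9, Il1r2, Fpr2, Cxcr2, Ppbp, Ifit1, Ifit2, Ifit3, Usp18, Ccl24, Cd2, Cd6, Cd3d and Cd3g) were chosen after their values were seen. Alternatives were the deposited values, normexp background correction, loess, a filter on dim probes, other batch terms, fewer samples and leaving out each sample. RefSeq names and promoters were of GRCm38.p6, and 96 of the 132 called genes had a promoter there. Probes of Hbb, Orm, Saa, Ear and Mt gene families may share signal. One gene that the naming rule selects is not reported here.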

Additional observations from a re-analysis of the deposited data

Results flagged for a closer look

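Among 78 named genes, 3 had a control sample far from the other OVA-challenged controls, and chance alone flags about 1 in 20 groups. Gdf15 stood at 7.67 in control replicate 5, with the nearest control at 7.45 (0.611 of the range of the 8 controls). Nsdhl, an enzyme of cholesterol synthesis, stood at 8.05 in control replicate 6, with the nearest at 8.28 (0.642 of the range). Klrb1-ps1 stood at 5.12 in control replicate 1, with the nearest at 5.49 (0.539 of the range), at a level where the probe was not above background.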

How the results depend on the processing

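The deposited values, normexp background correction and a filter on dim probes each kept all 6 counts within 1.5 times the reported ones. Other batch terms did not. With array as a random block the counts were 424 against controls, 191 for the difference between challenges, 1058 against CuO 40 and 1199 against CuO COOH 40. The replicate numbers do not pair the samples (correlations of same-numbered deviations of -0.12, 0.15 and 0.05), and a replicate block, in place of array or slide terms, gave 1506, 185, 1157 and 1395. Slide and position in place of array gave 298 against controls (64 of them shared with the 132) and 244 for the difference between challenges. Array in place of slide and position gave 0 against CuO PEG 10, 1 against CuO 40, 5 against CuO COOH 40 and 0 against CuO NH3 40. Against controls, loess normalization gave 41, controls of slides 4 to 6 alone gave 36, and a fit on the 11 samples alone gave 19, and the last 2 use fewer samples. Against CuO 40, adjusting over the 3 pairs together gave 164. Leaving out each sample in turn gave 9 to 442 against controls, 0 to 24 for the difference between challenges, 1 to 57 against CuO PEG 10, 0 to 193 against CuO 40, 130 to 220 against CuO COOH 40 and 249 to 515 against CuO NH3 40. The difference between challenges was called in 24 genes without control replicate 7. The gene list counts without single samples and the split by direction were chosen after seeing the data. The cause of these shifts was not tested.

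Single genes that changed sign were not called with array as a term. With a random block Ccr4 was 0.048, Ccl11 -0.88 and Il33 -0.25. With the replicate block Ccr4 was 0.10, Ccl11 -1.89, Il33 -0.39 and Arg1 -0.19. With slide and position Ccr4 was 0.021, Ccl11 -0.19, Il33 -0.26 and Nsdhl 0.044. On the 11 samples alone Ccr4 was 0.031, Ccl11 -0.13, Il13 -0.11 and Nsdhl 0.24, and with loess Sftpd was -0.011. With each sample left out Ccr4 ran from -0.25 to 0.0075, Ccl11 from -0.0019 to 0.51 and Il33 from -0.25 to 0.27. Over all results and alternatives, left-out samples and the moved counts above aside, 550 values kept direction and side of the threshold, 31 gained and 81 lost the call, and 16, those just listed, changed sign. Signal over background limits Il13, Saa4 and the genes seen only in exposed replicate 3.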

Other observations

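Of the 132 genes changed by CuO PEG 40, 22 were on any of the 35 gene lists and 110 on none. For 4 of the 132 no sample of the 11 measured the probe well above background, and 97 rested on 1 probe. The 20 genes with the largest non-overlapping changes had the same sign against control replicate 5 on slide 4 and control replicate 6 on slide 5. They were chosen as called and non-overlapping over these same samples, so the shared sign is not separate support.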
